A study of Mus musculus with 24 samples.

Results

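The genes described here encode proteins of the cytosolic ribosome. They were 50 named genes, 30 of the large subunit (Rpl) and 20 of the small subunit (Rps and Rpsa), found by symbol among 21887 protein-coding genes of the RefSeq GRCm38.p6 annotation. Pseudogenes were left out. The rule that gave the list used gene names and no value of the marks, but the list was chosen with earlier results of these data known. Another 33 cytosolic ribosomal protein genes lie outside it, and the term ribosomal protein genes below means the 50 unless stated. The libraries came from mouse embryonic stem (ES) cells of C57BL/6 background, grown with LIF, and from embryoid bodies (EB), the aggregates that ES cells form as they differentiate, at day 6. Each stage was profiled in wild type and in Prdm16 KO, cells carrying a knockout of the gene of the zinc finger protein PRDM16, and the labels do not say how it was made or from how many clones. CUT&RUN, in which a nuclease tethered by an antibody releases bound chromatin for sequencing, was run for H3K4me1, H3K4me2 and PRDM16. The 24 libraries formed 12 groups of 2, of which the 16 H3K4me1 and H3K4me2 libraries carry the results. Each library had 1 peak list, and a gene was called marked in a list when a peak lay within 2500 bp of either gene end.

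The ribosome joins a large subunit, which forms peptide bonds, to a small subunit, which reads the mRNA. Ribosomal protein genes are short, highly transcribed in growing cells, and start transcription within a pyrimidine tract that gives their mRNAs the 5' terminal oligopyrimidine (TOP) sequence through which mTOR signalling controls their translation. H3K4me2 lies at promoters and enhancers, and H3K4me1 is the usual mark of enhancers and of the flanks of active promoters, whose centre carries H3K4me3 instead.

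The promoters of 13 members are shown, because these genes stood for the 3 patterns described below. Each is 75 bases of the RefSeq GRCm38.p6 promoter on the sense strand, 60 before the start site and 15 from it. A run of C and T near the start site is in capitals. It is not always the run nearest to the start, as at Rpl23, Rpl27, Rps7 and Rps13. The first 4 belong to genes with an H3K4me2 peak in all 8 lists and no H3K4me1 peak in any list. They lie at chr14:18270972-18271046 on the minus strand for Rpl15, chr15:5116553-5116627 on the plus strand for Rpl37, chr7:3703981-3704055 on the plus strand for Rps9 and chr7:116334176-116334250 on the minus strand for Rps13.
Rpl15: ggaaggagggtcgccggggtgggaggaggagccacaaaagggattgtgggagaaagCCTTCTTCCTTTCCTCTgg
Rpl37: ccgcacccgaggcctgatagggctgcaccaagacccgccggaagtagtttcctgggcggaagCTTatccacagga
Rps9: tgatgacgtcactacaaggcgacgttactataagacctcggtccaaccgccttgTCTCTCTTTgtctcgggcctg
Rps13: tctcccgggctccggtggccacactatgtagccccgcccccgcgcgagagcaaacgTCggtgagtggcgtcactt
The next 5 belong to genes with an H3K4me2 peak in all 4 EB lists and in no ES list. They lie at chr4:152325666-152325740 on the plus strand for Rpl22, chr11:97782425-97782499 on the minus strand for Rpl23, chr11:101442185-101442259 on the plus strand for Rpl27, chr12:28635939-28636013 on the minus strand for Rps7 and chr14:24490618-24490692 on the plus strand for Rps24.
Rpl22: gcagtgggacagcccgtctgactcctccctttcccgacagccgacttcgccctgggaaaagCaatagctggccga
Rpl23: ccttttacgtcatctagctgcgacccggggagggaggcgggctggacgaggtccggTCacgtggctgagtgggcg
Rpl27: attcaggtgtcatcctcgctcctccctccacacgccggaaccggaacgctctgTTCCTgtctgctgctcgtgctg
Rps7: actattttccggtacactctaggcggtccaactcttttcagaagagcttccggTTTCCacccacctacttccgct
Rps24: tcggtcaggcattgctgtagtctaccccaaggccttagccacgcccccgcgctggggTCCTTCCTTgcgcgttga
The last 4 belong to genes with no peak of either mark in any of the 16 lists. They lie at chr7:45718011-45718085 on the plus strand for Rpl18, chr2:39005117-39005191 on the minus strand for Rpl35, chr5:115559407-115559481 on the plus strand for Rplp0 and chr7:141447591-141447665 on the plus strand for Rplp2.
Rpl18: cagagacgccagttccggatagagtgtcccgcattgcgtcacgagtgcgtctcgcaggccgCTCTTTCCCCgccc
Rpl35: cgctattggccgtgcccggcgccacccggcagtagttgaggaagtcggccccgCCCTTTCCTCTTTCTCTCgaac
Rplp0: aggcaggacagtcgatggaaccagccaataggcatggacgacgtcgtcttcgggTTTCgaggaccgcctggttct
Rplp2: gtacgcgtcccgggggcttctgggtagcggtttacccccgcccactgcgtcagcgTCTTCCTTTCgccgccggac

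The H3K4me2 lists held 22615 to 32874 peaks in ES cells and 13818 to 19246 in EBs, and the H3K4me1 lists 12746 to 15435 and 5990 to 14082. Reads were not analysed here, so depth is unknown, and a missing peak does not show a missing mark. The library titles give 3 series numbers, and the replicate 2 libraries of H3K4me2 ES KO and of H3K4me2 EB wild type came from another series than the other 14. No label says that the libraries of a group were separate cultures, so p-values measure only the spread between libraries, which may be technical. The Prdm16 gene held 8 and 6 H3K4me2 peaks in ES wild type, 11 and 13 in ES KO, 3 and 4 in EB wild type and 0 in both EB KO libraries, and peaks there do not show the deletion. Of 12 pluripotency genes, 3 to 5 were marked by H3K4me2 in ES cells and 4 to 8 in EBs, and of 15 early lineage genes 7 to 11 and 3 to 7. The marks therefore did not set the stages apart in the direction of transcription, which was not measured. The H3K4me1 library of ES wild type replicate 2 stood apart at ribosomal protein genes.

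The marks moved in opposite directions between the stages at ribosomal protein genes. In ES wild type, H3K4me2 marked 24 and 19 of the 50 genes, against 56.1% and 54.2% of all protein-coding genes. In ES KO it marked 19 and 23, against 54.7% and 58.1%. All 4 ES libraries therefore had a lower share of ribosomal protein genes, 38.0% to 48.0%, than of all genes. The direction turned against the 7875 other genes spanning under 10000 bp, of which 36.1%, 33.3%, 33.2% and 36.9% were marked in these libraries. Among the 27 members with no other gene end within 2500 bp, ES wild type replicate 1 turned as well, at 59.3% against 56.2%. The 56.2% is of all other genes, with or without a near gene end. In EB wild type H3K4me2 marked 27 and 27, against 51.1% and 55.5% of all genes. In EB KO it marked 39 and 34, against 54.9% and 51.6%. Each EB library thus lay above each ES library, and EB wild type stood near the share of all genes while EB KO stood above it. Of the other genes under 10000 bp, 28.6% and 33.1% were marked in EB wild type, below the members' 54.0% in both libraries. Among the 27 members with no near gene end, EB wild type stood at 74.1% in both libraries. All other genes, with or without a near gene end, stood at 51.1% and 55.5%. Of other genes with no near gene end 39.9% were in no H3K4me2 list, against 14.5% of those with one.

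H3K4me1 went the other way. In ES wild type it marked 12 and 24 ribosomal protein genes, against 23.2% and 20.5% of all genes, and in ES KO 15 and 12, against 20.9% and 19.9%. In EB wild type it marked 6 and 7, against 17.7% and 16.2%, and in EB KO 0 and 2, against 10.8% and 7.81%. Each EB library lay below each ES library, and the EB KO lists were also the shortest of the mark. The 0 of 50 is a count of calls in a short list, not a measured absence.

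**Figure D1:**
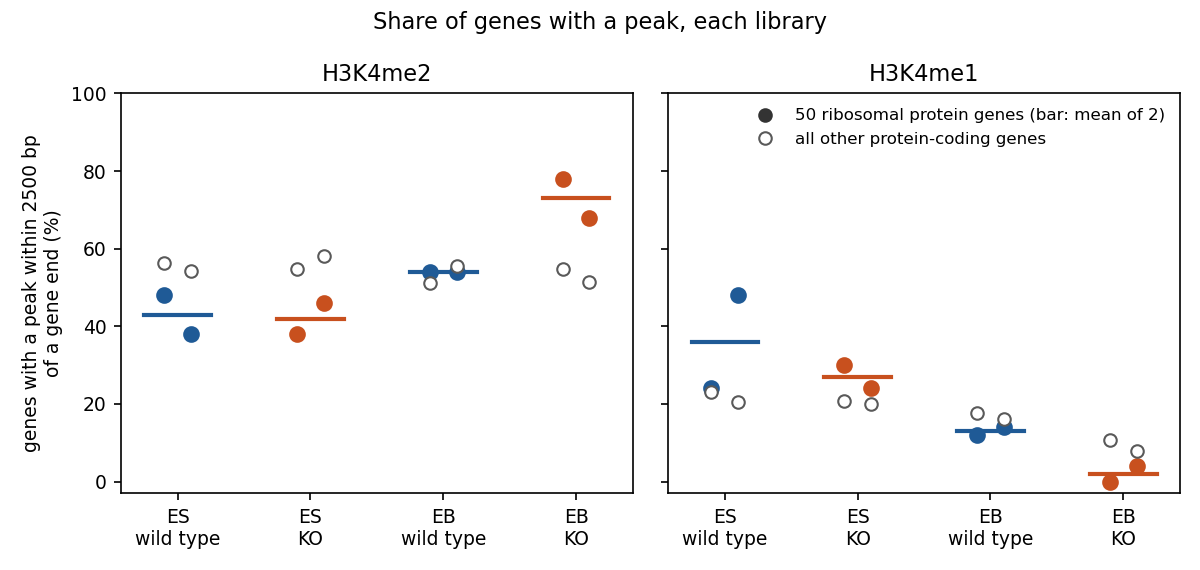
Share of genes with a peak within 2500 bp of a gene end (y axis, percent) in each H3K4me2 (left) and H3K4me1 (right) library, by stage and genotype. Filled points are the 50 ribosomal protein genes, bars their mean over 2 libraries and open points all other protein-coding genes; for H3K4me2 the filled points lie below the open ones in ES cells and above them in EB KO.

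Over all 16 libraries H3K4me2 marked 26.5 ribosomal protein genes per library and H3K4me1 9.75, a difference of 16.8 or 33.5 percentage points, against 37.4 points for all other genes (two-sided exact permutation p = 0.00617, adjusted p = 0.0802 over 13 tests). The gap between the marks was thus no larger than that of other genes. In ES wild type the marks overlapped, with 24 and 19 genes for H3K4me2 and 12 and 24 for H3K4me1. The adjusted p missed 0.05, and it was 0.0201 with the library of H3K4me1 ES wild type replicate 2 left out, where the difference was 18.2. H3K4me2 marked 21.2 genes per ES library and 31.8 per EB library, and H3K4me1 went from 15.8 to 3.75. Each of these differences, 10.5 and -12.0 genes, had an exact permutation p of 0.0556 and an adjusted p of 0.144, and 0.0556 is the smallest p that 8 libraries allow here. The test of the difference between the marks' stage effects, added after seeing the data, gave 22.5 genes (two-sided exact permutation p = 0.00154, the smallest that 1296 assignments allow, adjusted p = 0.00617 over 4 added tests). It permuted stage labels within each mark and genotype, so it assumed no stage effect in either mark and cannot test equal effects alone. The full separation of the stages in both marks, seen beforehand, set p at that smallest value. Relative to all other genes, the share of ribosomal protein genes with H3K4me2 differed by -13.3 points in ES cells and 10.3 points in EBs, and that with H3K4me1 by 10.4 and -5.64 points. Without the library of H3K4me1 ES wild type replicate 2 the H3K4me1 difference between the stages was -9.0 genes in place of -12.0, and -9.36 points relative to other genes in place of -16.0. With lists cut to the same number of peaks, the H3K4me2 difference was 18.2 genes and the H3K4me1 difference -2.25. The H3K4me1 difference was -1.25 genes with scores of at least 100, and the H3K4me2 difference 5.25 in the higher-scoring 50% of each list.

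Distances to the nearest peak gave the same order of the stages for both marks. The median ribosomal protein gene lay 6738, 9229, 9505 and 5864 bp from an H3K4me2 peak in the ES lists, against 240, 615, 542 and 0 bp for other genes. In the EB lists it lay at 0 bp in all 4, against 1642, 23, 459 and 1488 bp. The listed genes were thus farther from H3K4me2 than other genes in every ES list and nearer in every EB list. For H3K4me1 the medians were 9576, 4955, 12611 and 17197 bp in ES lists, where other genes stood at 21705 to 28919 bp, and 26133, 22167, 41728 and 56980 bp in EB lists, where other genes stood at 36346 to 98003 bp. The listed genes were the nearer ones in each H3K4me1 list, and EB KO had the largest distances. In the EB lists this was the reverse of the shares, which were lower for the listed genes than for other genes.

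Individual genes ranged from marked everywhere to marked nowhere. An H3K4me2 peak was present in all 8 lists at 14 ribosomal protein genes (28.0%), against 37.4% of all genes, and in no list at 10 (20.0%), against 30.9%. The other 26 were marked in 1 to 7 lists, which is 52.0% of the family. No ribosomal protein gene had an H3K4me1 peak in all 8 lists (0.927% of all genes did), and 16 had none in any list (32.0%, against 52.0% of all genes). Both counts of unmarked genes thus lay below the background.

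By role, the constant H3K4me2 group held both genes of the 5S particle, Rpl5 and Rpl11, whose proteins carry the 5S rRNA into the large subunit and bind MDM2 when ribosome assembly is impaired. Of the 4 genes of the stalk, which recruits translation factors, Rplp1 was marked in all 8 lists while Rplp0, Rplp2 and Rpl12 were marked in none. The other constant large subunit genes were Rpl6, Rpl15, Rpl26, Rpl34 and Rpl37. From the small subunit they were Rps6, the S6 kinase substrate, Rps9, Rps13, Rps20, Rps23, which reaches the decoding centre, and Rps29. The genes with no H3K4me2 peak were Rpl8, which lies near the peptidyl transferase centre, Rpl12, Rpl13a, Rpl18, Rpl19, Rpl28, Rpl35, Rplp0, Rplp2 and Rps28. That is 9 of 30 large subunit genes and 1 of 20 small subunit genes, while 8 and 6 respectively were marked in all 8 lists.

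At 5 genes neither mark was called in any of 16 lists: Rpl8, Rpl18, Rpl35, Rplp0 and Rplp2 (10.0%, against 27.2% of all genes). The nearest H3K4me2 peak to Rpl8 lay 16479 to 18105 bp away in every list, so the nearest called site hardly moved. At Rpl12, nearest by 14756 to 16546 bp, the same held. Rplp0 had its nearest H3K4me2 peak 16793 to 17280 bp away in ES cells and 15178 to 48405 bp away in EBs. Rpl35 fell just outside the window in EB KO replicate 1, at 2503 bp, and lay 12696 to 24096 bp away in ES cells. Rplp2 also fell just outside it in that library, at 2742 bp, and had the largest median distance of all members over the 8 lists, 31802 bp. Genes with a median distance of 0 bp were too many to rank. For H3K4me1 the nearest by median distance was Rps19, at 2780 bp, and the farthest Rps23, at 180789 bp.

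**Figure D2:**
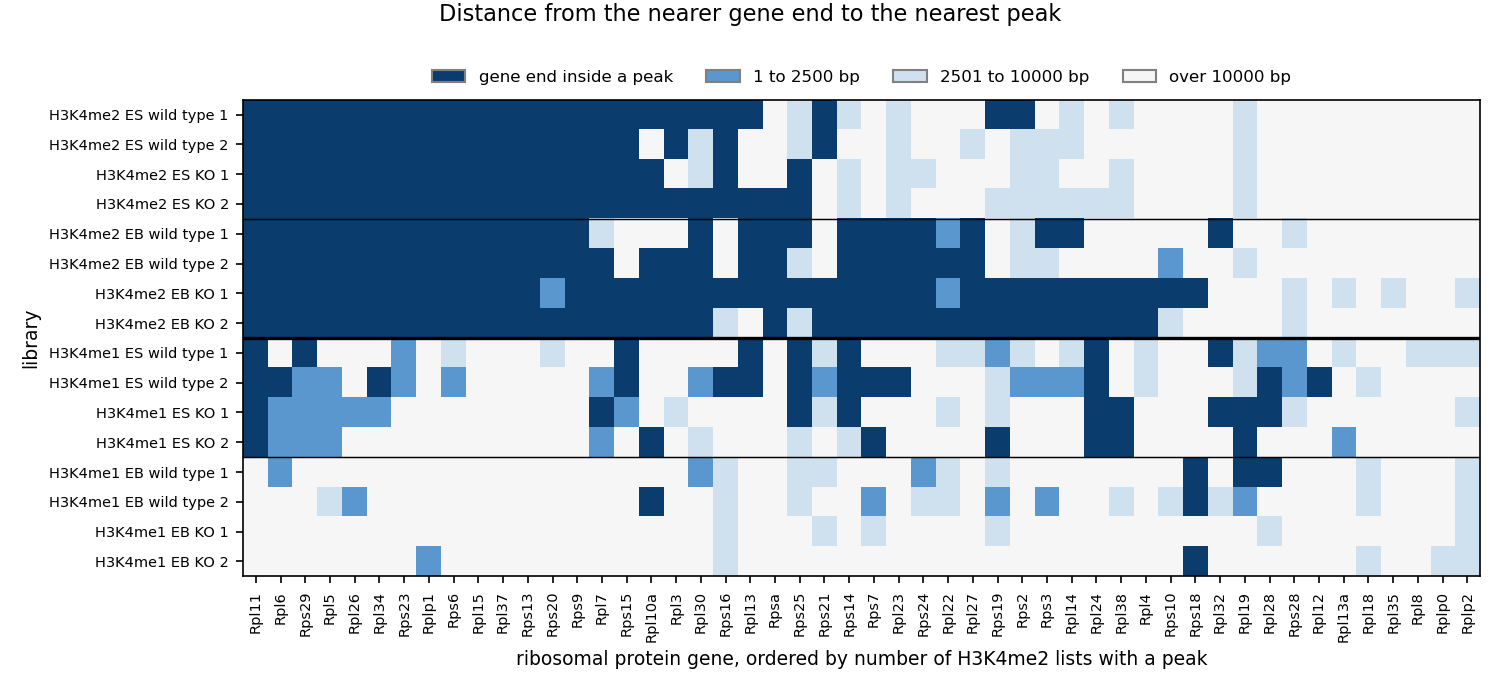
Each column is a ribosomal protein gene, ordered by its number of H3K4me2 lists with a peak, and each row a library; colour gives the distance in bp from the nearer gene end to the nearest peak. The 14 genes at the left are within 2500 bp of an H3K4me2 peak in all 8 lists, a block of genes further right is filled only from EB downwards, and H3K4me1 peaks are scattered.

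For H3K4me2, more genes were called in additional EB lists than in fewer. At 19 genes more EB than ES lists held a peak (38.0%, against 11.7% of all genes), and at 3 genes fewer did, Rpl7, Rps15 and Rps16 (6.0%, against 17.3%). The most complete cases were 6 genes with a peak in all 4 EB lists and no ES list (12.0%, against 1.6% of all genes): Rpl22, Rpl23, Rpl27, Rps7, Rps14 and Rps24. No ribosomal protein gene showed the reverse (1.92% of all genes did). Within a genotype, 7 genes were EB-only in wild type (3.3% of all genes) and 14 in KO (4.12%), and 3 were ES-only in wild type, Rps15, Rps16 and Rps21 (4.3%), and none in KO (6.26%).

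The distances show how clear these calls were. Rps7, a small subunit protein, had its nearest H3K4me2 peak 12738, 12558, 12609 and 12400 bp away in the ES lists and a gene end inside a peak in all 4 EB lists. Rpl23 stood at 9810, 9919, 9831 and 9987 bp in ES lists and at 0 in EB lists. Rps14, whose loss causes the anemia of the 5q- syndrome in people, stood at 6777, 24237, 6387 and 5444 bp in ES lists and at 0 in EB lists. At these 3 genes the values of the stages did not overlap, and their nearest ES peak was the 5444 bp at Rps14. Rps24 came nearest to the window, at 3336 bp in ES KO replicate 1 and 10015 to 11400 bp in the others. Rpl27, one of the genes mutated in Diamond-Blackfan anemia, had its nearest ES peak 4678 bp away in wild type replicate 2 and 15491 to 15691 bp in the others. Rpl22 had EB distances of 1170, 0, 97 and 0 bp, so that in 2 EB lists the peak lay inside the gene and not over its end. Its start site, at chr4:152325726, lay within the peak in all 4 EB lists.

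The peaks at ribosomal protein genes were wide, and wider in ES cells than in EBs. Over pairs of gene and list the median H3K4me2 peak spanned 6439 bp in ES cells (3029 to 8504 bp, 85 pairs) and 4635 bp in EBs (1821 to 8083 bp, 127 pairs), with members' median gene span at 3451 bp. At other marked genes the medians were 3134 and 3330 bp. Peaks of 6000 bp or more made up 68.2% of pairs in ES cells, against 10.7% at other genes, and 17.3% in EBs, against 8.29%. At Rpl37 the peak spanned 8456, 7977, 8350 and 7808 bp in the ES lists and 4325, 6418, 4424 and 4840 bp in the EB lists. At Rps13 it spanned 7837, 8001, 7155 and 7380 bp in the ES lists and 4885, 5071, 3737 and 4337 bp in the EB lists. At both genes each ES peak was wider than each EB peak. The narrowest peak of each stage was at Rps29, one of the shortest genes, with 3521, 3188, 4337 and 3029 bp in ES lists and 2952, 2949, 1821 and 2271 bp in EB lists, where each ES peak was again wider. Rps23 had 3933, 3335, 3463 and 3110 bp in ES lists and 3886, 2874, 1914 and 2008 bp in EB lists, where the stages overlapped.

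All 14 genes marked in all 8 lists had a wider median peak in ES cells than in EBs, as did all 26 genes marked in at least 1 list of each stage. Among other genes marked in all 8 lists, 3854 of 8182 (47.1%) were wider in ES cells. This comparison was chosen after the widths were seen and has no test. No list held a peak wider than 8714 bp, and the 99th percentile of all H3K4me2 peaks was 7285 to 7529 bp in ES lists, so ES peaks at Rpl37 and Rps13 lay at the upper end of what was called at all. The part of this upper end in the number of ES calls was not tested. The 6 EB-only genes had median EB peak widths of 4003 to 5758 bp.

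**Figure D3:**
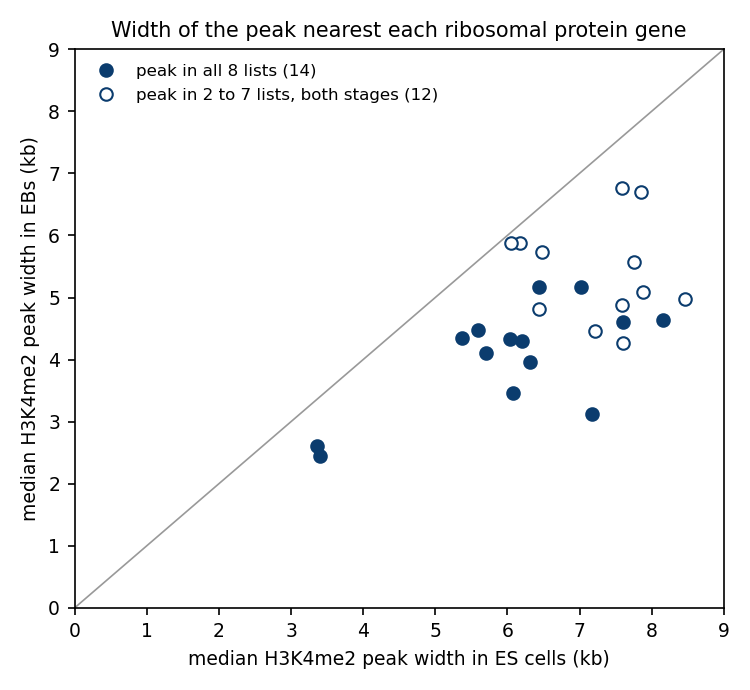
Median width in kb of the H3K4me2 peak nearest each ribosomal protein gene in ES lists (x axis) against EB lists (y axis), for the 26 genes marked at both stages; filled points are the 14 genes marked in all 8 lists and the line is equality. Every point lies below the line.

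Among the 41 members with a RefSeq start site, H3K4me2 peaks ran downstream over the gene. In ES cells a peak covered the start of 39.0% of them (mean of 4 libraries, 48.0% of other genes) and the position 2000 bp downstream of 39.0% (23.1% of other genes). Only 12.2% were covered 2000 bp upstream (10.7% of other genes). In EBs the values were 56.7% at the start (46.0%), 56.7% at 2000 bp downstream (26.4%) and 7.32% at 2000 bp upstream. Cover was thus higher downstream than upstream at ribosomal protein genes and, with lower downstream values, at other genes as well. At ribosomal protein genes the EB share was the higher one at the start site and 2000 bp downstream. At 5000 bp downstream the ES share was the higher one, 17.7% against 7.93%.

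H3K4me1 peaks lay away from the start and towards the far end of the gene in ES cells. The start site was covered at 1.83% of members, against 5.67% of other genes, and cover was highest, 23.2%, at 2500 bp downstream. In the 4 ES libraries the start of 1, 2, 0 and 0 of the 41 genes lay in an H3K4me1 peak, and the far end of 4, 10, 6 and 5 did. In EBs the far end lay in a peak at 2, 1, 0 and 1 genes. The far end was covered more often than the start in each of the 4 ES libraries, also without wild type replicate 2, while among other genes the start was, at 5.28% to 5.88% against 2.87% to 3.0%. Median gene span was 3451 bp over all 50 members and 17220 bp for other genes, so their far ends lay at unlike distances from the start. The part of gene length in this contrast was not tested.

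**Figure D4:**
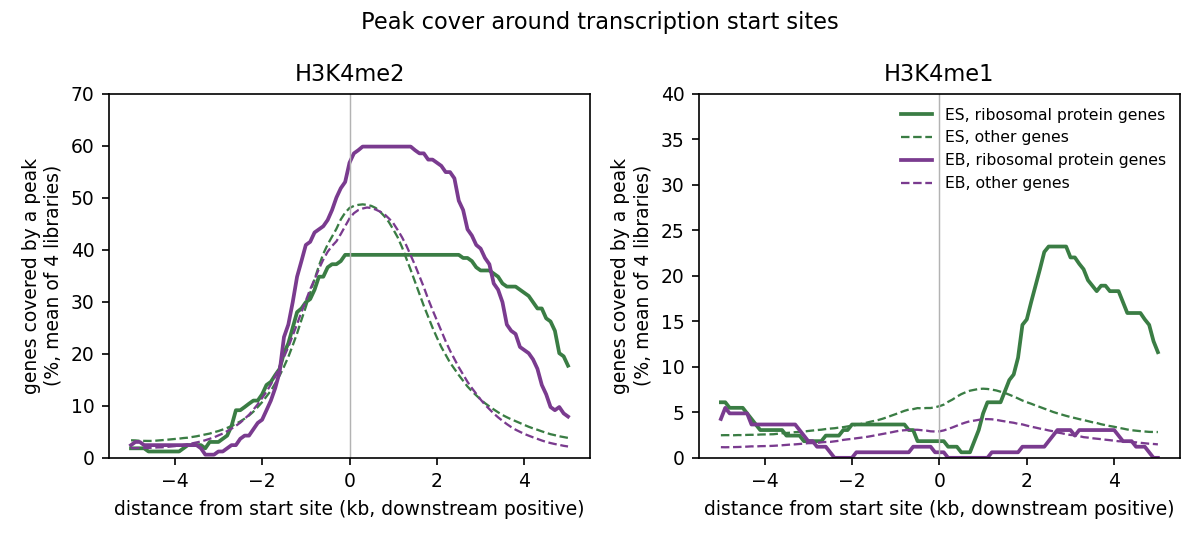
Percent of genes whose position at a given distance from the start site (x axis, kb, downstream positive) lies in a peak, mean of 4 libraries, for H3K4me2 (left) and H3K4me1 (right) in ES cells and EBs. Solid lines are 41 ribosomal protein genes and dashed lines other genes; H3K4me1 in ES cells has its top 2.5 kb downstream of the start.

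The genes that kept H3K4me1 in all 4 ES lists and in no EB list were Rpl11, Rpl24 and Rps29 (6.0%, against 2.96% of all genes), and none was EB-only in both genotypes (0.612%). Rpl24, the gene of the Belly spot and tail mutation, had a gene end inside an H3K4me1 peak in each ES list, and its nearest EB peak lay 99517 to 1394692 bp away. At Rpl11 an ES peak covered a gene end in each list and the nearest EB peak lay 16768 to 17079 bp away. At Rps29 the ES distances were 0, 528, 293 and 1530 bp and the EB distances 26114 to 214348 bp. The stages did not overlap at any of the 3. Fewer EB than ES lists held an H3K4me1 peak at 26 genes (52.0%, against 28.1% of all genes), and more did at 3, Rplp1, Rps18 and Rps24 (6.0%, against 14.3%).

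The Prdm16 KO comparison is the one the series was built on. In EBs, the mean number of genes with H3K4me2 was 27.0 ± 0.0 for wild type and 36.5 ± 3.54 for KO (SD, n = 2 libraries each), a difference of 9.5 genes that did not overlap between genotypes. In ES cells it marked 21.5 ± 3.54 and 21.0 ± 2.83, which overlapped. H3K4me1 marked 18 ± 8.49 and 13.5 ± 2.12 genes in ES cells, where the KO values lay within the wild-type range, and 6.5 ± 0.707 and 1.0 ± 1.41 in EBs, where KO was lower in both libraries. No comparison with 2 libraries a group could pass 0.05, because the smallest exact permutation p is 0.333. The EB differences of 9.5 and -5.5 genes had p = 0.333 (adjusted p = 0.577, exact permutation test), and the ES differences of -0.5 and -4.5 had p = 1.0. Without the library of H3K4me1 ES wild type replicate 2 the ES difference for H3K4me1 turned to 1.5. Over all 16 libraries KO minus wild type was -0.25 genes (two-sided exact permutation p = 0.963, adjusted p = 1.0). Whether the KO difference for H3K4me2 was larger in EBs than in ES cells was tested after seeing the data, and the 10.0 genes had an adjusted p of 0.222 (exact permutation test). The EB difference for H3K4me2 shrank to 1.5 genes in the higher-scoring 50% of each list and with scores of at least 100. It was 3.5 genes among the 27 members with no other gene end within 2500 bp. The EB difference for H3K4me1 turned to 1.0 at equal list lengths and was 0.0 with scores of at least 100.

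By gene, 7 members had an H3K4me2 peak in both EB KO lists and neither EB wild-type list (14.0%, against 2.05% of all genes), and none had the reverse (1.64%). These were Rpl4, Rpl24, Rpl38, Rps2, Rps15, Rps19 and Rps21. All of them but Rpl38 and Rps19 had another protein-coding gene end within 2500 bp, as did 23 of the 50 members. Rps19, the gene most often mutated in Diamond-Blackfan anemia, stood 11988 and 40013 bp from a peak in EB wild type and inside one in both KO lists. Rpl38, which is needed for translation of Hox mRNAs in the mouse embryo, stood at 54142 and 26342 bp in EB wild type. Rpl4, a protein of the exit tunnel, stood at 70390 and 71425 bp. At these 3 genes the EB wild-type peaks lay far outside the window. The KO peaks at Rpl4 did not overlap, with chr9:64171203-64175887 in replicate 1 and chr9:64178106-64180685 in replicate 2. Rps2, at the mRNA entry channel, had the nearest ones of the 7, at 8956 and 8778 bp. More KO than wild-type EB lists held a peak at 14 genes (28.0%, against 7.9%), and fewer did at 2, Rpl13 and Rpl32 (4.0%, against 8.47%).

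Rps15 had a gene end inside an H3K4me2 peak in all 4 ES lists, stood at 61005 and 59869 bp in EB wild type, and was inside a peak again in both EB KO lists. Rps21 was inside a peak in both ES wild-type lists, at 12939 bp in both ES KO lists, at 12491 and 12034 bp in EB wild type and inside a peak in both EB KO lists. For H3K4me2 it was the one gene with opposite genotype calls in the stages, being wild-type-only in ES cells (1.22% of all genes). Rps25, a protein used by internal ribosome entry sites, was the one KO-only gene for H3K4me2 in ES cells (1.91%). For H3K4me1 in ES cells Rpl13, Rps23 and Rps28 were wild-type-only (1.79% of all genes) and Rpl19 and Rpl38 KO-only (1.31%). In EBs Rpl19 was wild-type-only for H3K4me1 (4.14%), the opposite of its ES call, and no gene was KO-only (0.58%). These shares of a few genes in 50 were not tested.

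The EB KO H3K4me2 lists held 15205 and 13818 peaks and those of EB wild type 14334 and 19246, which overlapped, and the 19246 came from the other library series. Median peak widths were lower in both KO lists. Median widths at ribosomal protein genes were 4892 and 5806 bp in EB wild type and 4432 and 4240 bp in EB KO, and those at other genes 3670 and 3954 bp against 2757 and 3013 bp. The part of peak width in the genotype difference was not tested.

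PRDM16 peaks at the listed genes were few and did not recur. The 8 PRDM16 lists held 146 to 586 peaks, and 0 or 1 ribosomal protein gene was marked in each. In ES cells these were Rpl28 in wild type replicate 1 (0.452% of all genes), none in wild type replicate 2 (0.315%), none in KO replicate 1 (0.749%) and Rpl13 in KO replicate 2 (0.745%). In EBs they were Rps19 in wild type replicate 1 (0.233%), Rpl8 in wild type replicate 2 (0.85%), Rpl23 in KO replicate 1 (0.397%) and none in KO replicate 2 (0.347%). No gene recurred in a second list, and the KO lists, the background of this antibody, held a member in 2 of 4 cases, as against 3 of 4 in wild type.

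Other genes of protein synthesis were compared as counts. The 33 cytosolic ribosomal protein genes outside the 50 had H3K4me2 at 52.3% on average over ES libraries and 62.1% over EB libraries, with 7 genes in more EB lists and 1 in fewer. Of 38 translation factor genes 65.8% were marked in ES cells and 81.6% in EBs (14 more, 5 fewer), and of 43 ribosome biogenesis genes 61.6% and 85.5% (19 more, 2 fewer). Of 78 mitochondrial ribosomal protein genes, which serve the separate ribosome of that organelle, 76.6% and 81.7% were marked (15 more, 6 fewer). The 50 genes stood at 42.5% and 63.5% and all other protein-coding genes at 55.8% and 53.2%. The members were thus the lowest of these lists in ES cells, and each of the lists had more genes with additional EB calls than with fewer.

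For H3K4me1 the shares in ES cells and EBs were 31.5% and 7.5% for the 50 genes, 26.5% and 9.85% for the other ribosomal protein genes, 26.0% and 10.9% for the mitochondrial set, 34.9% and 12.5% for translation factors and 32.0% and 8.72% for ribosome biogenesis. All other protein-coding genes stood at 21.1% and 13.1%. Each of these lists was lower in EBs. Between EB wild type and EB KO the H3K4me2 share went from 54.0% to 73.0% for the 50 genes, from 59.1% to 65.2% for the other ribosomal protein genes, from 76.3% to 87.2% for the mitochondrial set and from 81.4% to 89.5% for ribosome biogenesis. For translation factors it was 81.6% in both and for all other genes 53.3% and 53.2%.

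**Figure D5:**
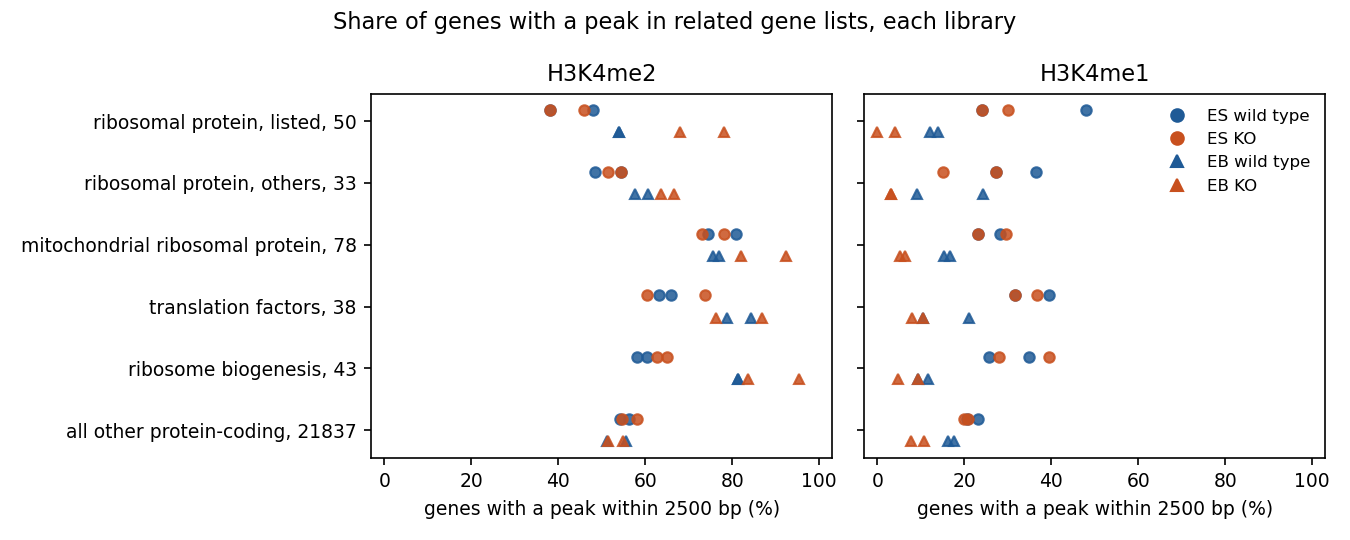
Percent of genes with a peak within 2500 bp of a gene end (x axis) in each library for 5 lists of protein synthesis genes and all other protein-coding genes, H3K4me2 left and H3K4me1 right. Circles are ES and triangles EB libraries, blue wild type and orange KO; in each list but all other genes the H3K4me2 triangles lie to the right on average.

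Gene surroundings differed between marked and unmarked members. Of the 23 members with another protein-coding gene end within 2500 bp, 8 had no H3K4me2 peak in any list (34.8%) and 3 were marked in all 8 (13.0%). Of the 27 without such a neighbour, 2 had none (7.41%) and 11 were marked in all 8 (40.7%). Among other genes the order was the opposite, with 14.5% of genes with a near neighbour and 39.9% of those without one in no list. Members were also short, and only 28.6% to 36.9% of the 7875 other genes under 10000 bp were marked by H3K4me2 in a list. A snoRNA gene lay within 18 of the 50 members, among them 5 of the 14 constantly marked genes, 3 of the 10 unmarked genes and 8 of the 19 with more EB lists.

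The promoters printed above came from a GC-rich, CpG-rich set of genes. Over 300 bases from 250 before the start site, members had a median GC content of 59.0% and an observed to expected CpG ratio of 0.857, against 56.3% and 0.575 for other genes. The ETS core CCGGAAG, searched on both strands, was present in 17 of 41 member promoters (41.5%) and in 11.8% of 17451 others, and the GC box GGGCGG in 58.5% and 46.3%. TATAAA was present in 7.32% and 13.4%, CCAAT in 34.1% and 39.0%, and AAGATGG, the YY1 core, in 7.32% and 6.37%. On the sense strand within 5 bases before to 10 after the start, CTTTCC was present in 14.6% and 0.556% and CTTTT in 4.88% and 1.3%, and a run of 5 or more C or T near the start in 58.5% and 32.8%. A match is a description of letters and not a bound site. The ETS core was present in 6 of 11 promoters of genes marked by H3K4me2 in all 8 lists, in 3 of 9 of unmarked genes and in 6 of 16 of genes with more EB lists, and the run of 5 or more in 6, 7 and 9 of them. Median CpG ratios were 0.736, 1.0 and 0.906 in these classes, which were formed from the peaks and were not tested.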

How the data were processed

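The 50 genes and the comparison lists were chosen with earlier results of these data known. Each library had 1 deposited peak list, with a score per peak that the authors gave, without a stated unit, and that was at least 50 in every list. Per the submitters' processing notes HOMER 4.10, deepTools, MACS2, bedtools, SAMtools 1.5 and Bowtie2 were used with mm10, in unstated roles. For control libraries, duplicate removal and scaling, the sources used here state nothing, and depth is unknown. The score was used to rank and filter peaks of the same list.

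Gene ends came from RefSeq GRCm38.p6, which shares mm10 coordinates, and the 1 mitochondrial peak per list was left out. Presence within 2500 bp and distance were computed per list with Python 3.11.15, numpy 2.4.6 and pandas 2.3.3, and the placement was tested on simulated data, where 200 of 200 planted peaks were placed correctly. Strand was known for the 41 members in the promoter table.

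Counts of marked members were compared over libraries with two-sided exact permutation tests, Benjamini-Hochberg adjusted over 13 tests, and over 4 tests added after the data were seen. Genes are not replicates, and shares of genes have no test. Named genes were those marked in all or no lists, called in 1 genotype or 1 stage alone, or nearest to and farthest from a peak. Any other gene was named after its values were seen. The alternatives were windows of 1000 and 10000 bp, the whole gene, the start site alone, the higher-scoring 50%, equal list lengths, scores of at least 100, members with no near gene end, short genes as background, a block by replicate number, the other library series left out and each library left out.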

Additional observations from a re-analysis of the deposited data

Results flagged for a closer look

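The difference between stages did not run the same way for both marks at ribosomal protein genes. H3K4me2 marked 10.5 more of the 50 genes in EBs than in ES cells and H3K4me1 12.0 fewer, on average per library, so that the stage effects differed by 22.5 genes. The two-sided exact permutation p was 0.00154, the smallest that 1296 assignments allow, and the adjusted p was 0.00617 over 4 tests added after the data were seen. All 4 EB libraries lay above all 4 ES libraries for H3K4me2, and all 4 below for H3K4me1. The H3K4me1 lists were also shorter in EB KO, with 8943 and 5990 peaks. The part of list length was not tested beyond the lists of equal length, where the difference was 20.5 genes (adjusted p = 0.0185, exact permutation test). In those lists EB minus ES was 18.2 genes for H3K4me2 and only -2.25 for H3K4me1.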

How the results depend on the processing

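The difference between the stage effects of the marks kept its direction and stayed past 0.05 under each alternative run, at 8.25 to 23.5 genes (adjusted p = 0.00617 to 0.0312, exact permutation test). As this contrast was chosen after the same libraries were seen, these p-values are no independent support. H3K4me2 minus H3K4me1 passed 0.05 with a window of 1000 bp (18.1), 10000 bp (15.9), equal list lengths (20.0), the higher-scoring 50% (13.1), scores of at least 100 (19.6) and members with no other gene end nearby (12.4), and with single libraries left out ranged from 15.2 to 18.2. EB minus ES over both marks turned positive with the higher-scoring 50% (0.875), equal lengths (8.0), scores of at least 100 (2.88) and no near gene end (0.625), and was -2.25 to 0.75 with libraries left out. KO minus wild type turned for H3K4me2 in ES cells at 10000 bp (1.0) and scores of at least 100 (1.5; -3.0 to 2.0 with libraries left out), for H3K4me1 in ES cells with a library left out (-10.5 to 1.5), and for H3K4me1 in EBs at equal lengths (1.0). Over all 16 libraries it turned at 1000 bp (0.625), the start site alone (0.5), equal lengths (1.75) and scores of at least 100 (0.625; -1.75 to 1.25 with libraries left out). Relative to other genes, EB minus ES for H3K4me1 turned at scores of at least 100 (0.516 points), and KO minus wild type at 10000 bp (-0.86), the higher-scoring 50% (-0.612) and no near gene end (-2.17; -1.84 to 4.85 with libraries left out). The KO effect in EBs minus ES for H3K4me1 turned at 1000 bp (1.5), the higher-scoring 50% (1.0), equal lengths (2.5) and scores of at least 100 (0.5; -7.0 to 5.0 with libraries left out). The causes were not tested. EB minus ES for H3K4me2 was 5.25 to 18.2 genes and for H3K4me1 -12.0 to -1.25, with unchanged direction. Leaving out the other library series removed no H3K4me1 library and gives no separate value there. Replicate numbers were not shown to pair libraries, since the deviations of same-numbered libraries correlated at -0.0404 to 0.0299 over 21887 genes. With the replicate number as a block EB minus ES for H3K4me2 stayed at 10.5 genes (adjusted p = 0.325, exact permutation test), and no call changed. Depth is unknown, so absent peaks set no limit on a mark.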
